A study of Mus musculus with 12 samples.

Results

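The genes described here are 30 genes of cholesterol synthesis and sterol regulation, measured by RNA sequencing in 12 libraries of conventional dendritic cells (cDC) sorted from mouse spleen. They were chosen by name and kept where they reached a level of at least 1 CPM (read counts scaled to the size of the library) in 3 or more libraries. All 30 met that rule, out of 27179 genes in the count table, and all 30 were among the 13415 genes tested. The mice were female C57/BL6 animals. Type 1 (cDC1) and type 2 (cDC2) cells came from mice labelled zfp366+/+ (WT) and from mice labelled zfp366-/- (KO), with 3 libraries for each of the 4 groups. The gene's protein, DC-SCRIPT, is a zinc finger regulator found in dendritic cells. Each library was made from pooled mice, and each of the 6 pools, 3 per genotype, gave 1 cDC1 and 1 cDC2 library. No treatment is labelled beyond digestion of the spleen with collagenase and DNAse before the sort. The labels do not say how the allele was made or which cells it affects.

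Cells make cholesterol from acetyl-CoA through mevalonate, squalene and lanosterol. The genes of this route are controlled together by SREBP2 (encoded by Srebf2), a membrane-bound transcription factor. When sterols are low, SCAP escorts SREBP2 to the Golgi, where it is cut and freed for the nucleus. When sterols are high, INSIG1 and INSIG2 hold SCAP in the endoplasmic reticulum. SREBP1 (Srebf1) acts more on fatty acid genes such as Fasn, and oxysterols activate the LXR receptors, which raise the exporters Abca1 and Abcg1. In dendritic cells sterol supply bears on membranes and on oxysterol signals that guide the position of cDC2 in the spleen.

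The promoters of Hmgcs1, Insig1 and Hsd17b7 are shown because these 3 members passed the test for replicate number described below. The sequences are from RefSeq on GRCm38.p6, the build of the count table, and run 5′ to 3′ up to the annotated start of the gene. Capitals mark the sterol regulatory element TCACNCCAC, the E-box CACGTG and CCAAT, on either strand. Hmgcs1 is at chr13:119690101-119690350 on the plus strand, Insig1 at chr5:28071162-28071411 on the plus strand and Hsd17b7 at chr1:169969243-169969455 on the minus strand.
Hmgcs1: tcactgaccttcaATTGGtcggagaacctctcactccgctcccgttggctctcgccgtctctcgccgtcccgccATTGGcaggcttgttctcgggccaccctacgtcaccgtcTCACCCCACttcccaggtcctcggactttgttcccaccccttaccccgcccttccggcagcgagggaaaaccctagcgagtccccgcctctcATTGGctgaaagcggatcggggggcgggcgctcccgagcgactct
Insig1: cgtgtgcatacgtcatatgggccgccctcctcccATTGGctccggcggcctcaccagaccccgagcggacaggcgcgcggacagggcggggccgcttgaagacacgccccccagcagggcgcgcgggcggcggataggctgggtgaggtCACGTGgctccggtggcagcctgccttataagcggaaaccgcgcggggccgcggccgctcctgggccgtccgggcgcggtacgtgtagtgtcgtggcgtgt
Hsd17b7: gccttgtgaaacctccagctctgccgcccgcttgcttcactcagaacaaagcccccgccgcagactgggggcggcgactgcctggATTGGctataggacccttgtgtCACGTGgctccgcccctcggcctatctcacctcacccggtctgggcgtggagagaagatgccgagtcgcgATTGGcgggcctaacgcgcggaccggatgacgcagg
Hmgcs1 held 1 sterol regulatory element match, 137 bases before its start, and CCAAT on the reverse strand (ATTGG) at 3 places. Insig1 and Hsd17b7 held 1 E-box match each and no match to the sterol regulatory element. RefSeq promoter windows of 300 bases (250 before and 50 after a start) were given for 23 of the 30 members, in 31 windows. The sterol regulatory element was in 1 of these windows (3.23%) and in 1.24% of all 32851 windows. The E-box was in 22.6% against 7.15%, CCAAT in 64.5% against 37.4%, and the GC box GGGCGG in 80.6% against 35.7%. Some members have more than 1 window, and such windows can overlap. Both Scap windows hold the same E-box, so it counts in each. No 2 of these motifs are the same letters, but matches were not kept from overlapping. The LXR repeat, 2 copies of AGGTCA spaced by 4 letters, was in 0 of the member windows and in 0.0152% of all windows. These are matches of letters, given as a description.

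Total counts ran from 11330503 to 36761685 reads, a 3.24-fold range, and the lowest was cDC2 WT replicate 3. Zfp366 was measured at 152, 89.2 and 67.5 CPM in cDC1 WT replicates 1, 2 and 3, and at 48.8, 48.3 and 45.4 CPM in cDC1 KO (log2 fold change -1.12, adjusted p = 0.0326, edgeR's quasi-likelihood test). In cDC2 it was at 52.5, 62.4 and 57.4 CPM in WT and at 55.0, 80.5 and 65.1 CPM in KO, so reads of the gene did not mark the libraries labelled KO there. Counts per gene cannot show which exons the reads came from, and KO below means the label. The subset labels fitted their markers: 6 of 6 cDC1 markers, Xcr1 and Clec9a among them, were higher in WT cDC1, and 6 of 6 cDC2 markers were lower. Libraries also differed in how the level moved with gene length (the rank correlation, across genes, of length with the level relative to the gene's mean). It was 0.3, 0.41 and 0.32 in cDC1 KO replicates 1, 2 and 3. In cDC1 WT it was 0.45, -0.24 and -0.34, so replicate 1 stood apart from the other WT libraries of that subset. It was 0.21, -0.23 and -0.2 in cDC2 KO and -0.33, -0.09 and -0.1 in cDC2 WT. Since these are bulk libraries, fewer cells of a type and less RNA per cell cannot be told apart.

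Reads were found for all members, at very unequal levels. Srebf2 was the most abundant per length, at 78.7 CPM per kb as the mean of the 4 groups. It was followed by Insig1 (28.3 CPM per kb), Ebp, the sterol isomerase (26.2), Pmvk, a mevalonate kinase step (25.8), and Msmo1, a sterol methyl oxidase (22.7). Srebf1 stood at 11.5 CPM per kb, below Srebf2. At the low end were Abca1, the cholesterol exporter, at 0.201 CPM per kb, Tm7sf2, a sterol reductase (1.88), Hsd17b7, a 3-ketosteroid reductase (1.95), the desaturase Fads2 (2.24) and Lss, the lanosterol synthase (2.49). 28 of the 30 members reached 1 CPM in every library, Abca1 in 10 and Fads2 in 9. The spans of 11 members overlap another annotated gene in RefSeq, among them Insig1 (the lncRNA Gm35223), Lss (the lncRNA 4930483K19Rik) and Fdft1 (the cathepsin gene Ctsb), and whether reads were assigned by strand is not given in the sources used here. The per-gene pattern over the libraries showed Fads1 and Fads2 above their mean in every cDC1 library, Insig2 high in cDC1 WT, and replicate 1 high in many rows.

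**Figure D1:**
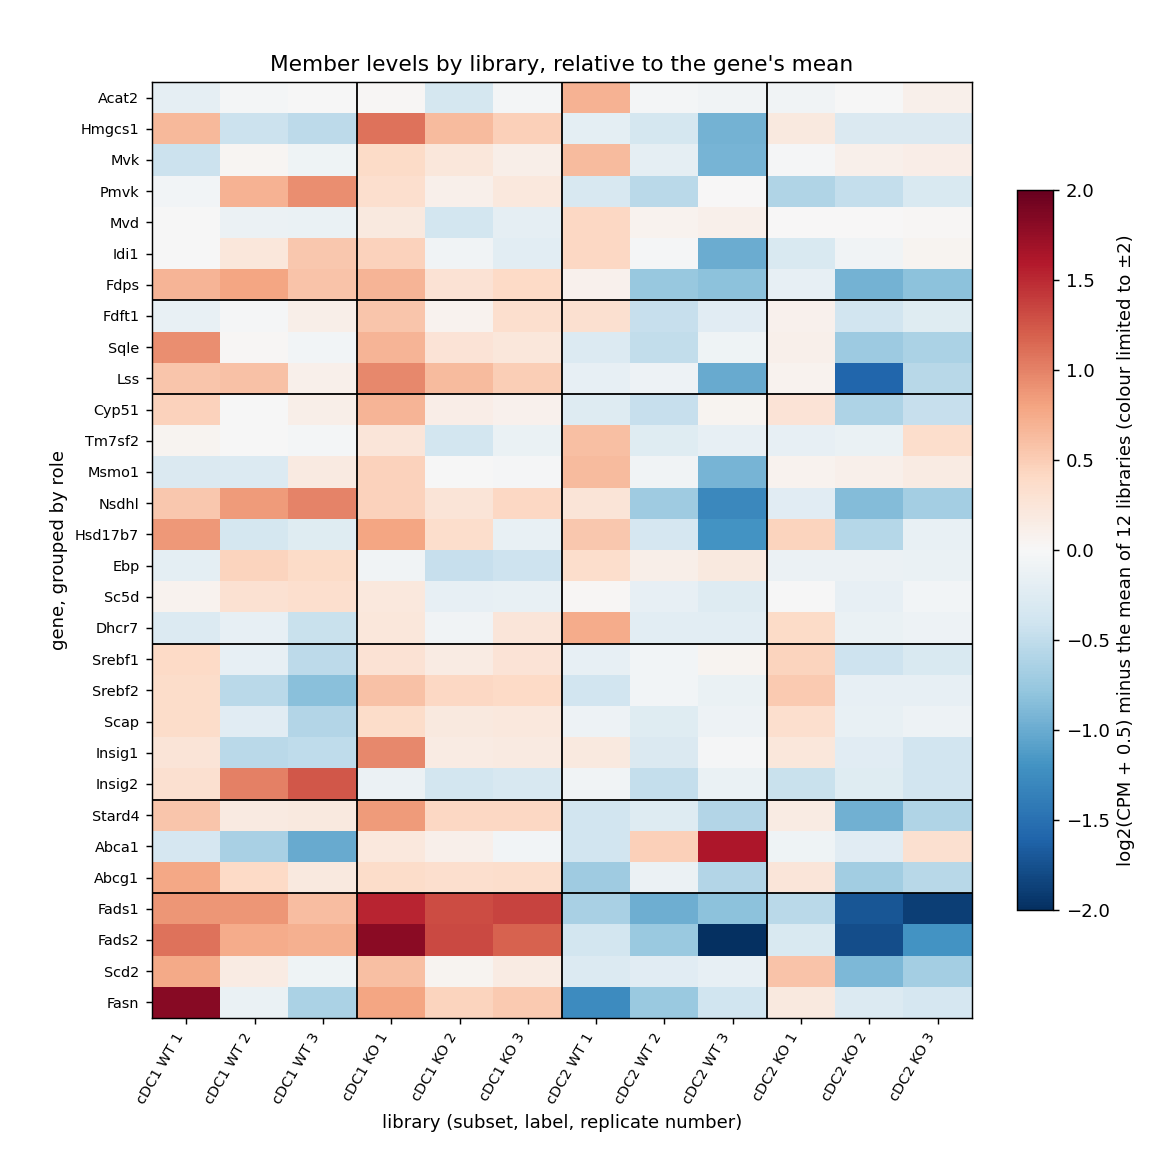
Each row is 1 of the 30 genes, grouped by role from mevalonate enzymes (top) to fatty acid enzymes (bottom), and each column is 1 of the 12 libraries. Colour gives log2(CPM + 0.5) minus the gene's mean over the 12 libraries, limited to ±2. Fads1 and Fads2 are red in all 6 cDC1 libraries and blue in all 6 cDC2 libraries, and Insig2 is reddest in cDC1 WT replicates 2 and 3.

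The first comparison asked how the subsets differed in WT mice. WT cDC1 were higher than WT cDC2 in 7 of 30 members and lower in 1, at an adjusted p below 0.05, which is 26.7% of the members beside 21.2% of all genes tested. The members called higher were Insig2, Fads1, Fdps, Nsdhl, Abcg1, Pmvk and Fasn, and Abca1 was called lower. The median log2 fold change of the members was 0.37, beside 0.02 for all genes, and 21 of 30 (70%) lay above 0, beside 51.2% of all genes. The libraries of the 2 groups did not overlap for 12 of 30 members (40%), beside 32.7% of all genes.

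Among the mevalonate enzymes, Fdps and Pmvk were called. Fdps, which makes farnesyl diphosphate, was at 39.1, 42.3 and 36.3 CPM in WT cDC1 replicates 1 to 3 and at 25.8, 14.1 and 13.4 CPM in WT cDC2. Every cDC1 library was above every cDC2 library, and the log2 fold change was 1.14 (SE 0.29, adjusted p = 0.014 by edgeR). Pmvk, phosphomevalonate kinase, was at 35.5, 59.6 and 70.3 CPM in WT cDC1 and at 29.4, 25.2 and 37.1 CPM in WT cDC2. Replicate 1 of cDC1 lay below the highest cDC2 library, and the log2 fold change was 0.85 (SE 0.25, adjusted p = 0.0294). The other 5 enzymes, Hmgcs1, Idi1, Mvk, Mvd and Acat2, had log2 fold changes from -0.33 to 0.47, and none passed the test.

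Of the later sterol enzymes, Nsdhl alone was called. Nsdhl, a sterol dehydrogenase of the demethylation steps, was at 35.8, 44.7 and 49.1 CPM in WT cDC1 and at 29.4, 14.7 and 9.74 CPM in WT cDC2, with no overlap (1.26, SE 0.34, adjusted p = 0.0195). Lss was at 10.4, 10.6 and 7.46 CPM against 6.13, 6.41 and 3.19 CPM, which also did not overlap, but it missed the threshold (0.84, SE 0.42, adjusted p = 0.185). Squalene epoxidase Sqle (0.66) and the desaturase Sc5d (0.38) were likewise without overlap and not called. The other sterol enzymes, Fdft1, Cyp51, Tm7sf2, Msmo1, Hsd17b7, Ebp and Dhcr7, lay between -0.49 and 0.40.

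In the SREBP system the difference lay in Insig2. Insig2 (chr1:121304353-121332662) was at 37.0, 59.7 and 70.3 CPM in WT cDC1 and at 28.2, 21.1 and 26.8 CPM in WT cDC2. All 3 cDC1 libraries were above all 3 cDC2 libraries, with a log2 fold change of 1.13 (SE 0.24, adjusted p = 0.00476). The other 4 genes did not pass the test: Srebf1 0.01 (SE 0.27), Srebf2 -0.05 (SE 0.30), Scap 0.06 (SE 0.24) and Insig1 -0.20 (SE 0.30).

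The transport genes moved apart from each other. Abcg1, a sterol exporter, was at 126, 96.7 and 84.7 CPM in WT cDC1 and at 44.5, 67.8 and 49.0 CPM in WT cDC2, with no overlap (0.93, SE 0.27, adjusted p = 0.0267). Abca1, the other LXR-driven exporter, was at 1.32, 0.969 and 0.636 CPM against 1.26, 2.70 and 6.55 CPM. The groups overlapped at replicate 1, and the difference of -1.81 (SE 0.57, adjusted p = 0.0382) rested on a gene with few reads, 535 over the 12 libraries. Stard4, a sterol carrier protein, was at 30.4, 23.4 and 23.8 CPM against 15.8, 17.2 and 13.6 CPM and was not called (0.74, SE 0.29, adjusted p = 0.0889), although the groups did not overlap.

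All 4 fatty acid enzymes had a log2 fold change above 0, and Fads1 and Fasn were called. Fads1, the delta-5 desaturase of polyunsaturated fatty acids, was at 34, 34 and 28.1 CPM in WT cDC1 and at 11.4, 8.92 and 10 CPM in WT cDC2. The groups were far apart, with a log2 fold change of 1.66 (SE 0.33, adjusted p = 0.00289). Its neighbour on chromosome 19, the delta-6 desaturase Fads2, was at 5.39, 4.13 and 4.05 CPM against 1.65, 1.16 and 0 CPM (2.17, SE 0.77, adjusted p = 0.0635). The 0 reads in cDC2 WT replicate 3 allow a level of up to 0.273 CPM, taking 3 counts as the limit for counting error. Fasn, the fatty acid synthase, whose values per library were added after they were seen, was at 259, 66.3 and 46.9 CPM against 30.1, 43.6 and 55.1 CPM. Replicate 1 of cDC1 was the highest by far, the groups overlapped, and the difference was 1.53 (SE 0.51, adjusted p = 0.049).

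These calls differed in how much they rested on single libraries. Fads1 and Insig2 were called without each of the 12 libraries in turn. Fdps was lost without cDC2 WT replicate 2 or 3, and Nsdhl without replicate 2 or 3 of either WT group. Pmvk was lost without cDC1 WT replicate 2 or 3 or cDC2 WT replicate 1 or 2, and Abcg1 without cDC1 WT replicate 1 or 2 or cDC2 WT replicate 1 or 3. Abca1 was lost without any cDC1 KO replicate, cDC2 KO replicate 3, cDC1 WT replicate 2 or 3, or cDC2 WT replicate 3. Fasn was called only without cDC1 WT replicate 2 or 3 and fell to 0.40 (SE 0.27, adjusted p = 0.309) without cDC1 WT replicate 1. With the mouse pool as a block, which pairs the cDC1 and cDC2 library of the same pool, 4 members were called, Fads1, Fdps, Insig2 and Nsdhl, which is 13.3% beside 16.7% of all genes. Abcg1 (adjusted p = 0.0592), Pmvk (0.0622), Abca1 (0.179) and Fasn (0.259) then missed the threshold. Among libraries numbered 2 and 3 only, 13 members were called, 43.3% beside 47.5% of all genes. There Srebf2 (-0.57, SE 0.12, adjusted p = 0.00172) and Insig1 (-0.37, SE 0.13, adjusted p = 0.0333) were lower in WT cDC1. A fit on the 6 WT libraries alone called Fads1 only (3.33%, beside 12.2% of all genes).

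The same question in KO mice gave 5 of 30 members higher in cDC1 and 0 lower, 16.7% of the members beside 16.9% of all genes (8.45% higher and 8.43% lower). These were Fads1, Fads2, Fdps, Stard4 and Lss. The median log2 fold change of the members was 0.45, beside -0.00 for all genes, and 26 of 30 (86.7%) lay above 0, beside 49.8%. The libraries did not overlap for 11 members (36.7%, beside 47.8% of all genes), and all 11 were higher in cDC1, as were 25.1% of all genes.

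Fads1 (chr19:10182877-10196874) was at 53.3, 45.3 and 46.9 CPM in KO cDC1 and at 12.3, 5.21 and 4.57 CPM in KO cDC2. Its log2 fold change of 2.72 (SE 0.34, adjusted p = 0.000152) was the greatest of the members called in either genotype apart from Fads2. Fads2 (chr19:10062765-10101503) was at 9.19, 6.43 and 5.77 CPM against 1.75, 0.308 and 0.713 CPM (2.93, SE 0.77, adjusted p = 0.0214). Fdps was at 39.1, 29.7 and 32.1 CPM against 21.4, 12.3 and 13.4 CPM (1.10, SE 0.29, adjusted p = 0.022). For all 3 genes the cDC1 libraries lay above the cDC2 libraries without overlap. Stard4 was at 37.8, 27.7 and 27.8 CPM against 23.1, 10.4 and 13.4 CPM (0.99, SE 0.28, adjusted p = 0.0329). Lss was at 13.9, 11 and 9.91 CPM against 7.27, 1.96 and 4.53 CPM (1.34, SE 0.42, adjusted p = 0.0458). In both genes replicate 1 was the highest library of its group, and the groups did not overlap.

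Insig2 did not separate the KO subsets. It was at 27.3, 22.8 and 23.6 CPM in KO cDC1 and at 21.6, 24.9 and 22.5 CPM in KO cDC2, overlapping values with a log2 fold change of 0.09 (SE 0.24, adjusted p = 0.82). Nsdhl was at 34, 29.4 and 33.0 CPM against 20.9, 13.2 and 15.1 CPM (0.97, SE 0.34, adjusted p = 0.0714). Pmvk was at 46.6, 39.5 and 42.8 CPM against 24, 26.3 and 29.5 CPM (0.69, SE 0.25, adjusted p = 0.0802). In both genes the KO groups did not overlap, and neither passed the test. Abcg1 was at 94.7, 92.8 and 93.9 CPM against 86.9, 45.3 and 50 CPM (0.63, SE 0.27, adjusted p = 0.132), with replicate 1 of cDC2 close to the cDC1 libraries. Abca1 was at 2.15, 1.97 and 1.72 CPM against 1.67, 1.46 and 2.35 CPM, which overlapped (0.10, SE 0.54).

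Fads1 was called without each library in turn. Fads2 and Stard4 were lost without any of the 3 cDC1 KO libraries or without cDC2 KO replicate 2 or 3, and Fdps without cDC1 KO replicate 1 or 3 or cDC2 KO replicate 2 or 3. Lss was lost without any cDC1 KO replicate, cDC1 WT replicate 2 or 3, cDC2 KO replicate 2 or 3, or cDC2 WT replicate 2. The number of members called was 9 without cDC1 WT replicate 1 (30%, beside 24.7% of all genes) and 10 without cDC2 KO replicate 1 (33.3%, beside 21.8%). It was 1 (3.33%) without cDC1 KO replicate 1 or 3 (beside 9.49% and 9% of all genes) or cDC2 KO replicate 2 or 3 (8.85% and 8.91%), and 2 (6.67%) without cDC1 KO replicate 2 (8.91%). The count over all genes moved in the same direction each time. With the mouse pool as a block, Hmgcs1 was called as well (0.86, SE 0.22, adjusted p = 0.0477), which gave 6 members (20%, beside 11.5% of all genes). Among libraries numbered 2 and 3 only, 18 members were called (60%, beside 49.2% of all genes), 17 of them higher in cDC1 (25% of all genes) and 1 lower (24.2%). There Srebf2 (0.55, SE 0.12, adjusted p = 0.00204) and Insig1 (0.48, SE 0.13, adjusted p = 0.00801) were higher in KO cDC1.

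**Figure D2:**
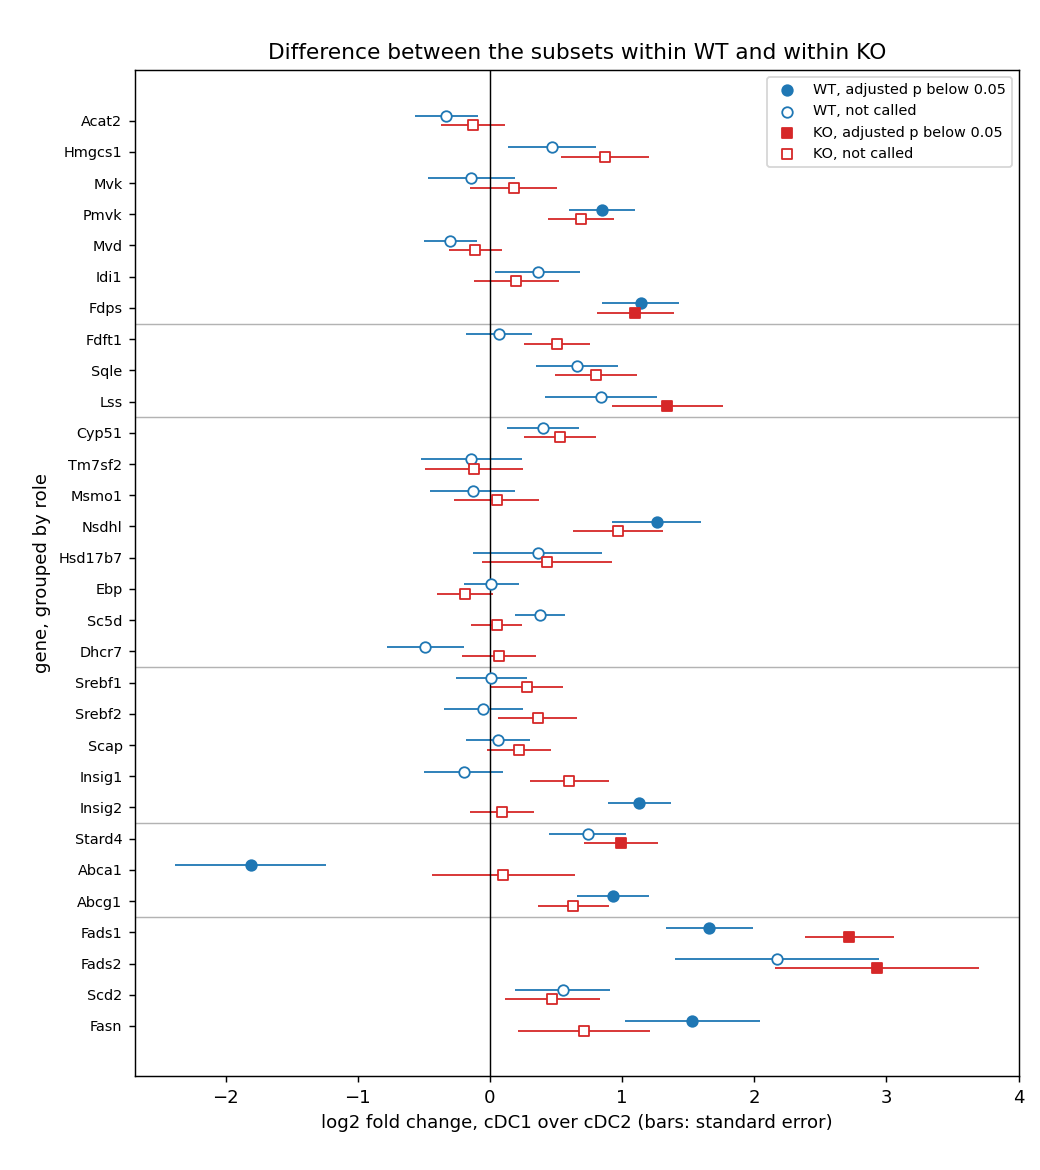
Each row is a member gene, the x axis is the log2 fold change of cDC1 over cDC2, circles are WT, squares are KO, and bars are 1 standard error. Filled symbols passed an adjusted p below 0.05. Fads1 is filled in both genotypes, at 1.66 and 2.72, and Insig2 is filled in WT (1.13) and near 0 in KO (0.09).

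Other genes of the pathway, from lists of 55 genes of which 53 were tested, were compared between the subsets in the same fit. In WT, 11 were higher in cDC1 and 4 were lower (28.3% called, beside 21.2% of all genes), and in KO 10 were higher and 2 lower (22.6%, beside 16.9%). The scavenger receptor Cd36 was higher in cDC1 in WT (5.19, SE 0.47, adjusted p = 8.0e-06) and in KO (5.45, SE 0.48, adjusted p = 1.1e-05). So was Hsd3b7, an oxysterol-degrading enzyme of bile acid synthesis, at 2.59 (SE 0.29, adjusted p = 3.7e-05) and 2.30 (SE 0.29, adjusted p = 0.000147). In WT, Gpr183, the receptor for dihydroxycholesterol signals, was lower in cDC1 (-3.54, SE 0.43, adjusted p = 7.5e-05). The lysosomal cholesterol transporter Npc1 was lower in cDC1 in both genotypes, at -1.79 (SE 0.30, adjusted p = 0.000999) in WT and -1.15 (SE 0.30, adjusted p = 0.0193) in KO. The stearoyl-CoA desaturase Scd1 was higher in both, at 1.78 (SE 0.42, adjusted p = 0.00927) and 2.35 (SE 0.43, adjusted p = 0.00238). In KO, Mylip, a ubiquitin ligase induced by LXR, was higher in cDC1 (1.28, SE 0.22, adjusted p = 0.00137). In WT the LXR and oxysterol list had 2 of 9 genes higher and 2 lower (44.4% called, beside 21.2% of all genes). Cholesterol uptake, storage and trafficking had 4 of 13 higher and 1 lower (38.5%), and the fatty acid list 3 of 9 higher and 0 lower (33.3%). The remaining lists were below the share of all genes. Remaining sterol synthesis had 1 of 5 lower (20%). SREBP activation and INSIG turnover had 1 of 8 higher (12.5%), and the isoprenoid branch 1 of 9 higher (11.1%).

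The second question was how cDC1 libraries labelled KO differed from those labelled WT. The libraries labelled KO had 0 of 30 members higher and 1 lower, Insig2, which is 3.33% of the members beside 5.32% of all genes (3.6% higher and 1.72% lower). The members' median log2 fold change was 0.16, beside -0.00 for all genes. Libraries of the 2 groups did not overlap for 8 members (26.7%), beside 26.9% of all genes. Mvk, Dhcr7, Srebf2, Abca1, Fads1 and Fads2 were higher in every KO library than in any WT library, and Nsdhl and Insig2 were lower in every one.

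Insig2, which anchors SCAP in the endoplasmic reticulum, was at 37.0, 59.7 and 70.3 CPM in WT cDC1 and at 27.3, 22.8 and 23.6 CPM in KO cDC1. All 3 KO libraries were below all WT libraries, and the mean went from 55.7 ± 17 to 24.6 ± 2.43 CPM (SD, n = 3 each). The log2 fold change was -1.18 (SE 0.24, adjusted p = 0.0126 by edgeR's quasi-likelihood test), so Insig2 fell 2.27-fold. Its KO cDC1 level stood beside 25.4 ± 3.72 CPM in WT cDC2 and 23 ± 1.67 CPM in KO cDC2. This fall and the difference between the WT subsets use the same 3 cDC1 WT libraries. The call was lost without cDC1 KO replicate 2 (adjusted p = 0.0793) or 3 (0.0738) and without cDC1 WT replicate 2 (0.0644) or 3 (0.0648). Over all 22 alternatives the adjusted p ran from 1.7e-05 to 0.0793, and 18 kept the call.

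The other genes of the SREBP system lay above 0. Insig1 was at 85.6, 49.1 and 50.1 CPM in WT cDC1 and at 140, 80.9 and 81.5 CPM in KO cDC1 (0.71, SE 0.30, adjusted p = 0.216). Srebf2 was at 446, 238 and 192 CPM in WT and at 515, 457 and 453 CPM in KO (0.70, SE 0.30, adjusted p = 0.238). In both genes WT replicate 1 was well above WT replicates 2 and 3, and only Srebf2 had no overlap. Hmgcs1, the first committed step toward mevalonate, whose values per library were added after they were seen, was at 86.5, 40.8 and 38.3 CPM in WT and at 117, 85.7 and 76.9 CPM in KO (0.76, SE 0.33, adjusted p = 0.239). WT replicate 1 was above KO replicate 2. Srebf1 was at 64.1, 43.2 and 33.5 CPM against 59.1, 54.2 and 58.5 CPM (0.29, SE 0.27), with WT replicate 1 the highest library. Scap had a log2 fold change of 0.36 (SE 0.24). None of these 5 genes passed the test.

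Leaving out cDC1 WT replicate 1 changed several of these. Without it 7 members were called, 23.3% beside 22.3% of all genes: Insig2 and Ebp lower, and Hmgcs1, Srebf2, Insig1, Scap and Fasn higher. Hmgcs1 was then at 1.24 (SE 0.28, adjusted p = 0.0103), Srebf2 at 1.15 (SE 0.24, adjusted p = 0.0086), Insig1 at 1.03 (SE 0.28, adjusted p = 0.0251) and Insig2 at -1.40 (SE 0.19, adjusted p = 0.000723). Among libraries numbered 2 and 3 only, 12 members were called (40%), beside 47.8% of all genes. Higher in KO cDC1 there were Srebf2 (1.06), Hmgcs1 (1.02), Fasn (0.84), Insig1 (0.69), Scap (0.58), Fads1 (0.55) and Srebf1 (0.53). Lower were Insig2 (-1.51), Ebp (-0.88), Pmvk (-0.68), Nsdhl (-0.61) and Sc5d (-0.50). The genes called higher were 2648 (Insig1) to 9938 (Fasn) bases long, and those called lower 1506 (Pmvk) to 2524 (Insig2). In these libraries the correlation of level with gene length was 0.41 and 0.32 in cDC1 KO and -0.24 and -0.34 in cDC1 WT. With the gene length trend taken out of the same libraries, an alternative chosen after seeing the data, 10 members were called (33.3%, beside 38.5% of all genes). Srebf2 (0.68), Hmgcs1 (0.87) and Insig1 (0.65) remained higher, and Insig2 (-1.52), Ebp (-0.63), Nsdhl (-0.53) and Sc5d (-0.43) remained lower. Scap, Srebf1, Fads1, Fasn and Pmvk were not called under it, and Idi1, Abcg1 and Scd2 were called lower.

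Each KO library was also set against the WT library with its number, and the differences are given here. For Insig1 they were 0.71, 0.72 and 0.70 on the log2(CPM + 0.5) scale for numbers 1, 2 and 3. For Insig2 they were -0.43, -1.37 and -1.56, all below 0. Srebf2 had 0.21, 0.94 and 1.24, and Hmgcs1 0.44, 1.06 and 1.00. Fasn had -1.04, 0.59 and 1.16, so libraries numbered 1 went the other way. Ebp (0.12, -0.91 and -0.79) and Pmvk (0.39, -0.59 and -0.71) did so too. Same numbers are not matched animals here, since WT and KO came from different pools.

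**Figure D3:**
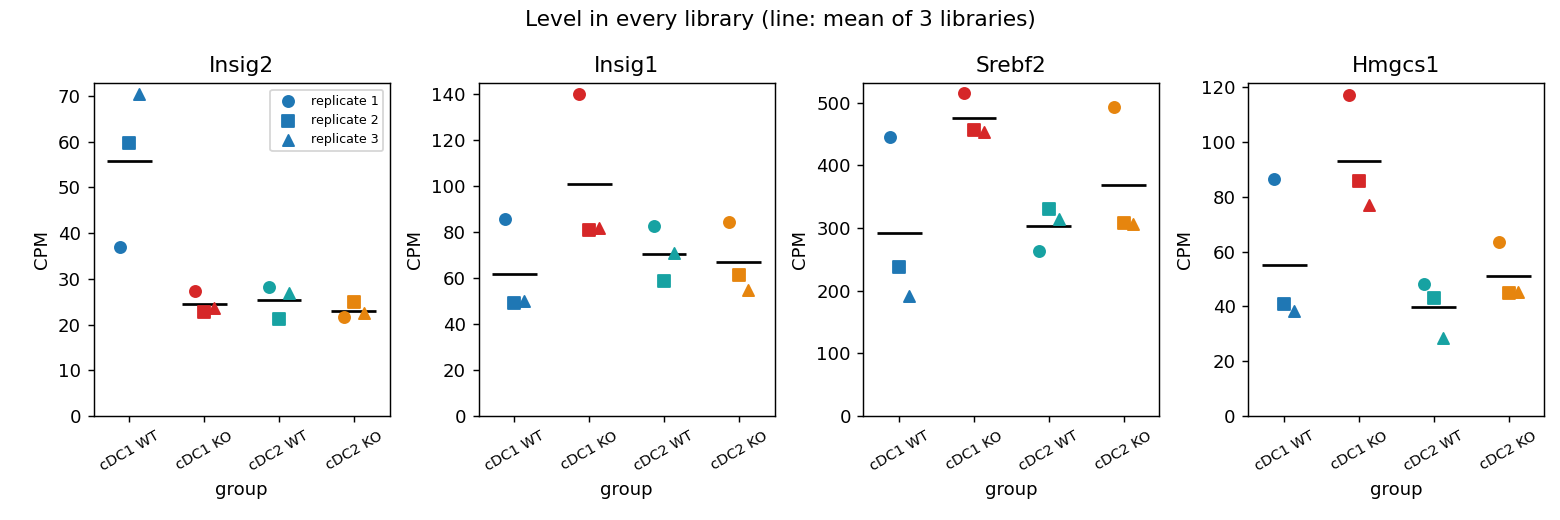
Level in CPM of Insig2, Insig1, Srebf2 and Hmgcs1 in each library, with the 4 groups on the x axis, a marker shape for each replicate number and a line at the mean of 3 libraries. Insig2 is high in the 3 cDC1 WT libraries (37.0 to 70.3 CPM) and between 21.1 and 28.2 CPM in the other 9, and replicate 1 of cDC1 WT sits above replicates 2 and 3 in the other 3 genes.

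**Figure D4:**
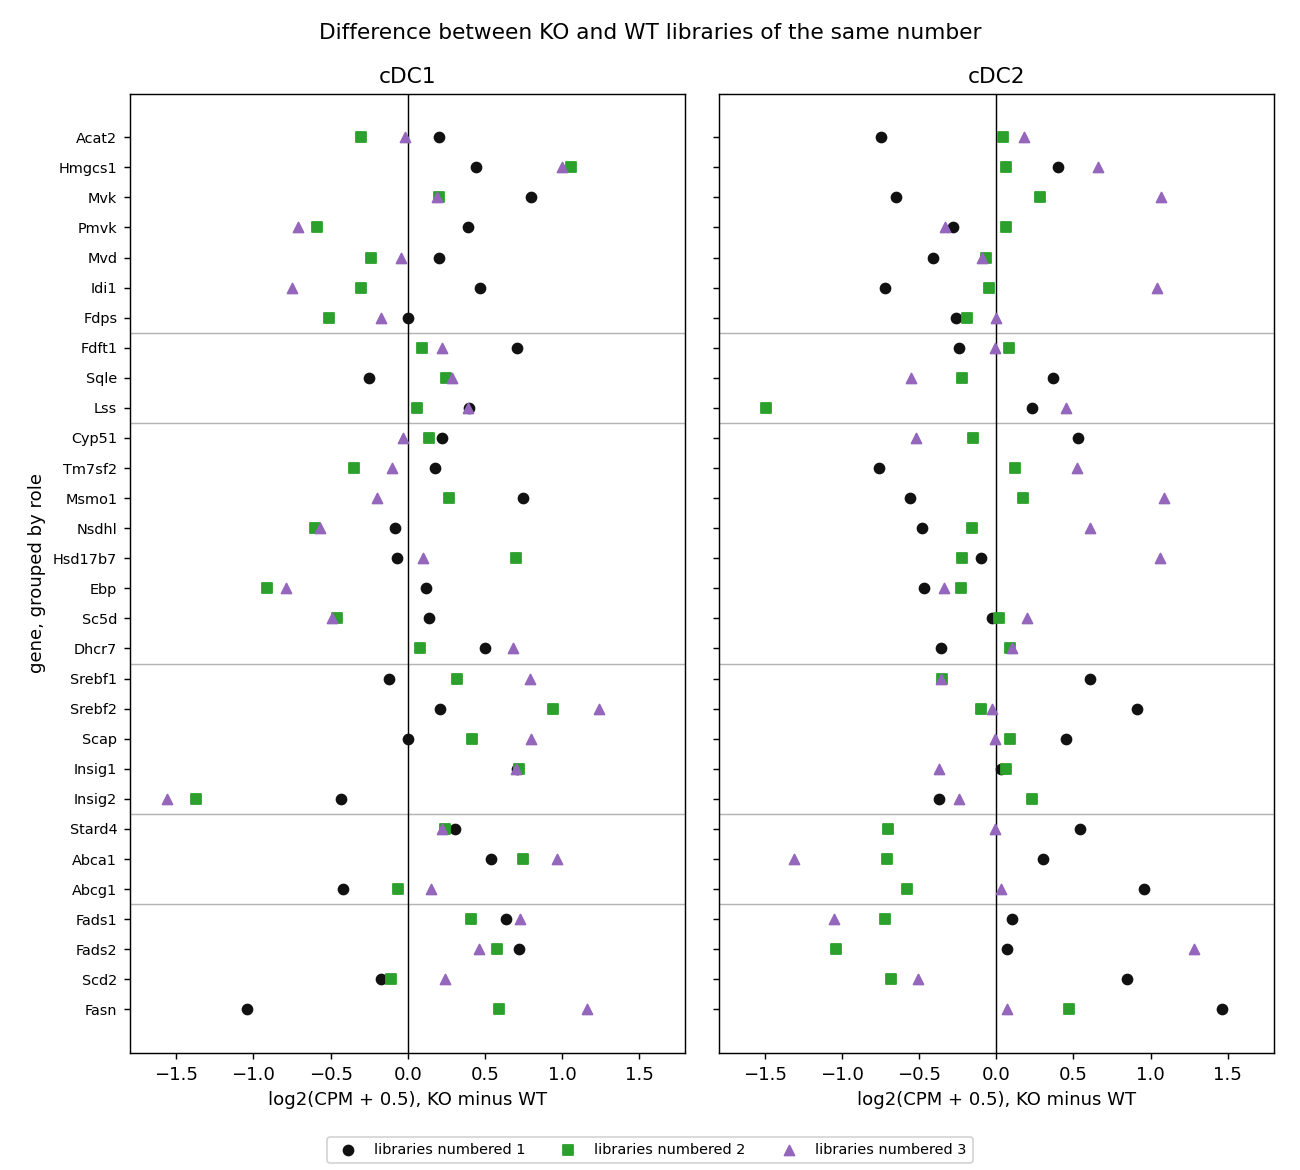
Each row is a member gene, and the x axis is the difference KO minus WT in log2(CPM + 0.5) between libraries of the same replicate number, for cDC1 (left) and cDC2 (right). In cDC1 the Insig1 points coincide near 0.7 and the Insig2 points all lie below 0, while the number 1 point of Fasn (-1.04) is on the other side of 0 from the other two.

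Genes that mark other cells moved in the same comparison. All 6 cDC2 markers were higher in cDC1 KO, where their summed level ran from 466 to 475 CPM, against 52.2 to 69.2 CPM in cDC1 WT and 1896 to 2318 CPM in cDC2. None of the 6 cDC1 markers was called, though 5 of them lay below 0, with a median log2 fold change of -0.41. Monocyte markers summed to 568 to 738 CPM in cDC1 KO and 110 to 206 CPM in cDC1 WT, with 3 of 7 called higher (Ccr2, Ms4a4c and Cx3cr1). Most of that sum was Ccr2, at a mean of 525 CPM in KO and 69.4 CPM in WT, and 3 of the 7 markers lay below 0. Of the plasmacytoid dendritic cell markers 2 of 6, Ccr9 and Pacsin1, were called lower, while 3 of the 6 lay above 0. Of the red pulp macrophage markers Cd163 was higher (4.24) and Vcam1 lower (-0.87) out of 12. The part of these in the Insig2 difference was not tested. Of the 53 other pathway genes tested, 1 was higher and 0 lower in cDC1 KO. It was Gpr183, at a mean of 377 CPM against 45.4 CPM in WT (3.05, SE 0.42, adjusted p = 0.000936).

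In cDC2 no member passed the test between KO and WT. It was 0 of 30 members and 0% of all 13415 genes by edgeR, and DESeq2 and limma-voom also called 0 members. At an unadjusted p below 0.05 there were 0 members and 271 genes (2.02%). The members' median log2 fold change was -0.08, beside 0.02 for all genes. Libraries did not overlap for 3 members (10%, beside 5.89% of all genes): Fasn was higher in every KO library (3.33% of all genes), and Mvd and Ebp were lower (2.56%). Fasn was at 30.1, 43.6 and 55.1 CPM in WT and at 83.7, 60.5 and 57.9 CPM in KO (0.65, SE 0.50). Insig2 had a log2 fold change of -0.14 (SE 0.24), Insig1 -0.08 (SE 0.30), Srebf2 0.29 (SE 0.30) and Hmgcs1 0.36 (SE 0.33). Srebf2 was at 263, 331 and 315 CPM in WT and at 493, 308 and 307 CPM in KO, where replicate 1 alone stood above the WT range. Insig1 was at 82.4, 58.6 and 70.7 CPM in WT and at 84.3, 61.1 and 54.7 CPM in KO, which overlapped. Srebf1 was at 43.1, 46.6 and 50.6 CPM against 66.0, 36.4 and 39.2 CPM, again with KO replicate 1 the highest. Among libraries numbered 2 and 3 only, Fads1 (-0.94, SE 0.18, adjusted p = 0.00741) and Scd2, another stearoyl-CoA desaturase (-0.60, SE 0.13, adjusted p = 0.0171), were lower in KO, 6.67% of the members beside 7.72% of all genes. With the length trend taken out as well, Fasn was also called, higher in KO (0.51, SE 0.13, adjusted p = 0.0301), which gave 10% of the members beside 8.57% of all genes. None of the 53 other pathway genes was called in cDC2.

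The difference of the KO effect between the subsets was tested directly. It was called for 0 of 30 members, beside 1.42% of all genes. Insig2 had a difference of -1.04 (SE 0.34, adjusted p = 0.223), so its fall in cDC1 was not shown to differ from cDC2 with all libraries. Insig2 was called without cDC1 WT replicate 1 (-1.26, SE 0.25, adjusted p = 0.0192), the only member called there, beside 3.65% of all genes, and over 22 alternatives its adjusted p ran from 0.000346 to 0.522. Without cDC2 KO replicate 1, Fads1 was the only member called, beside 1.52% of all genes. Among libraries numbered 2 and 3 only, 13 members were called (43.3%, beside 38.3% of all genes). There Insig2 stood at -1.50 (SE 0.22, adjusted p = 0.000346), Fads1 at 1.49 (SE 0.24, adjusted p = 0.000557), Srebf2 at 1.13 (SE 0.17, adjusted p = 0.000352) and Insig1 at 0.85 (SE 0.18, adjusted p = 0.00318). With the length trend taken out as well, 8 members were called (26.7%, beside 28.1%), those 4 among them.

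Libraries numbered 1 were compared with those numbered 2 and 3 over the 4 groups. The labels do not say what the number stands for beyond the replicate. Within a genotype, the cDC1 and cDC2 libraries numbered 1 came from the same mouse pool. The fit had no term for pool and took all libraries as independent, so its p-values do not allow for shared pools. 3 of 30 members were higher in libraries numbered 1 and 0 were lower, 10% of the members beside 2.63% of all genes (1.59% higher and 1.04% lower). They were Insig1, Hsd17b7 and Hmgcs1. The members' median log2 difference was 0.40, beside 0.03 for all genes, and 27 of 30 (90%) lay above 0, beside 52.9%. Pmvk (-0.23), Abca1 (-0.21) and Insig2 (-0.10) were the 3 below 0. At an unadjusted p below 0.05 there were 13 members (43.3%), beside 23.3% of all genes.

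Insig1 was the highest library of its group at replicate 1 in all 4 groups: 85.6, 140, 82.4 and 84.3 CPM in cDC1 WT, cDC1 KO, cDC2 WT and cDC2 KO. Replicates 2 and 3 ran from 49.1 to 81.5 CPM, so the 4 libraries numbered 1 lay above the other 8. Its log2 difference was 0.62 (SE 0.12, adjusted p = 0.0251 by edgeR). Hsd17b7 was at 15.3, 14.6, 12.2 and 11.4 CPM in the libraries numbered 1 and between 3.28 and 10.6 CPM in the others (1.03, SE 0.21, adjusted p = 0.0348). Hmgcs1 was at 86.5, 117, 48.0 and 63.5 CPM at number 1. It was at 40.8 and 38.3, 85.7 and 76.9, 43.0 and 28.3, and 44.9 and 45.1 CPM at numbers 2 and 3 of the same groups (0.65, SE 0.15, adjusted p = 0.0483). Within every group replicate 1 was the highest of these 3 genes.

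The pattern was not the same in each group. Replicate 1 was the highest of 3 libraries for 29 members in cDC1 KO (96.7%, beside 42.6% of all genes), for 20 in cDC2 KO (66.7%, beside 45.7%), for 18 in cDC2 WT (60%, beside 39.8%) and for 16 in cDC1 WT (53.3%, beside 45.4%). It was so in all 4 groups for 4 members, Insig1, Hmgcs1, Hsd17b7 and Fads2 (13.3%, beside 8.18% of all genes). By role, all 8 genes of the steps from lanosterol to cholesterol had a fitted difference of 0.00 or more, with a median of 0.38. The 4 fatty acid enzymes had a median of 0.67, led by Fads2 (1.01), Fasn (0.68), Scd2 (0.66) and Fads1 (0.50). Fasn in cDC1 WT had the widest gap, 2.21 on the log2(CPM + 0.5) scale, and in cDC2 WT it had -0.69. Mvk and Nsdhl had 1.20 and 1.26 in cDC2 WT and -0.40 and -0.38 in cDC1 WT.

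**Figure D5:**
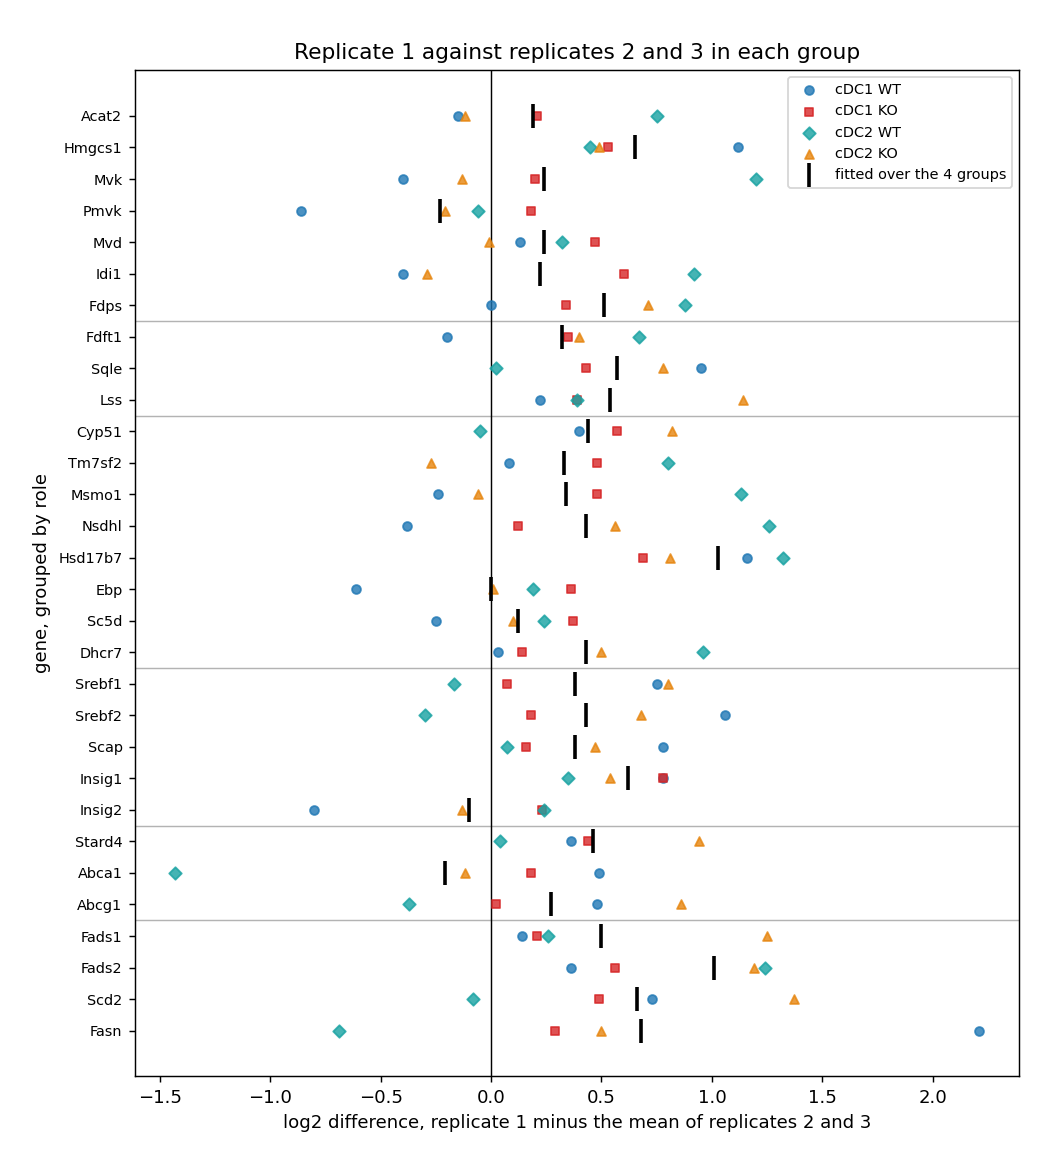
Each row is a member gene, and the x axis is the log2(CPM + 0.5) of replicate 1 minus the mean of replicates 2 and 3, with a marker for each of the 4 groups and a black bar for the fitted value over the groups. Insig1, Hmgcs1, Hsd17b7 and Fads2 have all 4 markers above 0, as do Sqle, Lss, Dhcr7, Scap, Stard4 and Fads1. Fasn runs from -0.69 in cDC2 WT to 2.21 in cDC1 WT.

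Each of these calls was lost when any of many single libraries was left out. Of 12 fits without 1 library, 2 kept Hmgcs1, 4 kept Hsd17b7 and 5 kept Insig1. Hmgcs1 was called without cDC2 WT replicate 1 or 2 and lost without each of the other 10. Hsd17b7 was lost without replicate 2 or 3 of either cDC1 group, cDC1 WT replicate 1 or any cDC2 KO replicate. Insig1 was lost without replicate 2 or 3 of either cDC1 group or any cDC2 KO replicate. Without single libraries the number of members called ran from 0 to 7, the highest without cDC2 WT replicate 1 (23.3%, beside 5.08% of all genes). In the fits with 0 members called, 0.512% to 0.853% of all genes were called. DESeq2 called 7 members (23.3%, beside 12.6% of all genes) and the fit with a gene length offset 5 (16.7%, beside 3.68%), with all 3 genes among them (adjusted p at most 0.0408).

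Markers of other cells moved with the number too. Neutrophil markers summed to 0.934 to 6.10 CPM in libraries numbered 1 and 6.24 to 82.9 CPM in the others, with 3 of 3 tested lower, and Elane had no read. Erythroid and platelet markers summed to 12.8 to 25.9 CPM against 81.3 to 228 CPM, with 3 of 4 tested lower. Of the red pulp macrophage markers 4 of 12 were called lower, and 1 of the 12 lay above 0. Of the plasmacytoid dendritic cell markers 2 of 6 were called lower, while 2 of the 6 lay above 0. Of the monocyte markers 2 of 7 were called higher, while 3 of the 7 lay below 0 and the median log2 difference was 0.05. Their part in the difference of the sterol genes was not tested. Of the 53 other pathway genes, Icmt, a methyltransferase of prenylated proteins, was higher in libraries numbered 1 (0.81, SE 0.14, adjusted p = 0.0164) and Nr1h3, which encodes LXR-alpha, was lower (-1.0, SE 0.22, adjusted p = 0.0416).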

How the data were processed

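Reads per gene were counted in 12 libraries of splenic cDC1 and cDC2. The values are raw counts deposited by the authors, not normalized, under Entrez Gene identifiers. Per the submitters' processing notes, reads were aligned to GRCm38 (mm10) and counted with featureCounts; the aligner, versions and strand setting are not given in the sources used here. RefSeq's GRCm38.p6 annotation gave symbols for 25275 of 27179 genes, and the 1904 without one held 2.23% of the reads.

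Genes were kept by edgeR's filterByExpr over the 4 groups (13415 genes), scaled with edgeR's TMM method and fitted as 4 group means with edgeR 4.0.16 in R 4.3.3, using robust quasi-likelihood F tests. P-values were adjusted by Benjamini-Hochberg over all genes tested and called below 0.05. Standard errors divide the log2 fold change by the root of the F statistic. The replicate number comparison added 1 term for number 1 and none for mouse pool. CPM use TMM-scaled totals. Differences between libraries of the same number use a pseudocount of 0.5 CPM. The median standard error over the members was 0.30 for genotype and subset comparisons, 0.42 for their interaction and 0.18 for replicate number. Counting limits cover counting error only, since reads are not independent molecules. The fit was also run on simulated counts, drawn independently around cDC1 WT means with a common dispersion and set fold changes. Those counts held no shared pools, replicate number structure, gene length trend or subset differences, so they do not test the fit under these.

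Members and gene lists were chosen with earlier results of these data known. All members are named, with values per library for the called members of smallest adjusted p and for Srebf1, Srebf2, Insig1 and Abca1. Other pathway genes are named by smallest adjusted p, up to 4 per comparison. Mouse pools pair cDC1 and cDC2 libraries, per the labels. Residual correlations of same-pool libraries were 0.26, 0.14 and 0.14 in KO and -0.2, -0.11 and -0.07 in WT, so the pool block is given where it changes a call. The labels call the libraries biological replicates from mouse pools. Alternatives were another scaling (RLE), other filters, DESeq2, limma-voom, a gene length offset, blocks, subsets of libraries and leaving out each library.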

Additional observations from a re-analysis of the deposited data

How the results depend on the processing

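The comparisons rest on 3 libraries per group. The number of members called was 1 for KO against WT in cDC1, and leaving out single libraries gave 0 to 7 (714 of all genes, and 318 to 3052). It was 0 in cDC2 and 0 without any single library. For the difference of the KO effect it was 0, and 0 to 1 without single libraries. For the subsets it was 8 in WT (3 to 9, with 2049 to 3266 of all genes) and 5 in KO (1 to 10, with 1209 to 3382), and for replicate number 3 (0 to 7, with 70 to 714). With libraries numbered 2 and 3 only, the counts were 12, 2, 13, 13 and 18 in the first 5 comparisons, and with a gene length offset added, an alternative chosen after seeing the data, 10, 3, 8, 16 and 14. The mouse pool block gave 4 in WT (16.7% of all genes called, against 21.2%) and changed no call for the difference of the KO effect. Fits on the compared groups alone gave 1 in WT (12.2% of all genes) and 10 in KO (32.4%). For replicate number, DESeq2 gave 7 (12.6%) and the gene length offset 5 (3.68%), against 2.63% of all genes. The cause of these changes was not tested. No member called in a comparison changed sign in it under the alternatives run.

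With the replicate number as a replicate block, 3 members were called for KO against WT in cDC1 (10%, beside 5.46% of all genes). They were Insig2, Insig1 (adjusted p = 0.0417) and Hmgcs1 (adjusted p = 0.0488). The block gave 0 members in cDC2 (0% of all genes) and 0 for the difference (1.44% of all genes). It gave 7 for the WT subsets (23.3%, beside 22.4% of all genes) and 8 for the KO subsets (26.7%, beside 18.1%). The residuals of same-numbered KO and WT libraries correlated at 0.02, -0.07 and 0.11 for the cDC1 libraries and at -0.05, -0.05 and -0.06 for the cDC2 libraries, so the libraries set against each other were not paired by that measure. Same-numbered libraries that differ in both subset and label correlated at 0.38, 0.22 and 0.3 (cDC1 WT with cDC2 KO) and at 0.34, 0.22 and 0.08 (cDC1 KO with cDC2 WT), so the number was not without shared structure. Every one of the 30 members passed the expression rule, also at the thresholds tried for it.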

Other observations

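The balance of the INSIG genes within a library, a ratio chosen after its values were seen, was highest in cDC1 WT. Per read of Insig1 there were 0.432, 1.22 and 1.40 reads of Insig2 in the WT cDC1 libraries numbered 1, 2 and 3. The KO cDC1 libraries had 0.195, 0.281 and 0.289. In cDC2 they were 0.342, 0.361 and 0.378 in WT and 0.257, 0.407 and 0.412 in KO. The lowest cDC1 WT value was 1.49 times the highest cDC1 KO value. No test was made of this ratio.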
